A study of Mus musculus with 2 samples.

Results

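Lhx2 and Tbx1 hair follicle keratinocytes were taken from 2 Xenium sections of mouse skin as 1762 of 70658 cells, 857 in the WT section and 905 in the Utx-cKO section. Xenium reads out individual RNA molecules under the microscope, where they lie in the tissue, here with a custom panel of 480 genes on thin sections of fixed, paraffin-embedded whole skin. A cell was kept with at least 20 transcripts and was a member with at least 2 transcripts of Lhx2 and Tbx1 together and at least 3 of the basal genes Krt5, Krt15 and Col17a1 together. It also had to hold fewer than 2 transcripts of Krt79, a keratin of the upper follicle, and fewer than 3 of the cycling genes Mki67, Top2a and Cdk1. The members were thus selected on the transcript counts of 9 genes, whose levels in members are given as description only.

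Hair follicles are epithelial downgrowths of the epidermis that are renewed in cycles of growth and rest. Lhx2 and Tbx1 are transcription factors of the stem cells in the lower part of the resting follicle, where Lhx2 is known to hold the cells quiescent and in their niche and Tbx1 to support their self-renewal. Krt15 is a keratin of basal cells and of these stem cells, and Col17a1 anchors basal cells to the basement membrane as part of the hemidesmosome.

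Both sections came from B6/129 females. In the Utx-cKO line, Krt14-Cre removed Kdm6a (Utx), a histone demethylase, from tissues that express keratin 14, and the WT control is labelled with no further allele or agent. Krt14-Cre acts in epithelium, so melanocytes, fibroblasts and immune cells of the section are not its targets. The comparison asks how gene expression of these skin cells differs without Kdm6a. There was 1 section per genotype, so no difference was tested. Intervals are exact 95% ones that cover counting error and leave out differences between animals. The tissue of a section lay in 4 separate strips. The labels tie no strip to an animal or skin site, so strips are shown as parts of a section and not as replicates.

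The members held 82959 transcripts in WT and 72313 in Utx-cKO, with medians of 89 and 74 per cell. Strips ranged from 67 to 101 in WT and from 54.5 to 86 in Utx-cKO. The highest negative control probe had 5 and 8 counts over all members, and the genes compared below had at least 100 counts over both sections. Of the cell labels, 2 occurred in both sections and 0 among members.

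Most members carried Lhx2 without Tbx1. Lhx2 alone was found in 539 WT and 526 Utx-cKO members, both genes in 291 and 349, and Tbx1 alone in 27 and 30. At the threshold, 501 and 575 members had a sum of exactly 2, and 1342 and 1427 cells that met every other condition had a sum of 1 and fell just outside. The cells just outside had medians of 68 and 57 transcripts, below those of the members. A further 64 and 23 cells with enough Lhx2 and Tbx1 were left out for Krt79, 19 and 7 for cycling genes, and 41 and 39 for too few basal transcripts. Members held 52.2% and 51.5% of all Lhx2 transcripts in kept cells, so the rule reached only part of the cells that express it. Lhx2 stood at 24224, 25343, 19312 and 24749 CPM in the WT strips and 26986, 30888, 23656 and 30846 CPM in the Utx-cKO strips, where CPM are counts scaled to the same panel total. Tbx1 stood at 4121, 7362, 3387 and 8250 CPM in the WT strips and 6350, 8843, 5835 and 7646 CPM in the Utx-cKO strips. Krt15 was found in 96.1% and 96.6% of members.

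The panel could check the name hair follicle only in part. Of 22 stem cell and outer root sheath genes listed, 5 were on the panel and 3 of those, Lhx2, Tbx1 and Krt15, made the rule. The other two were Id2, an inhibitor of basic helix-loop-helix factors, and Krt17, a keratin of follicle epithelium. Both were above basal keratinocytes without Lhx2 and Tbx1, by log2 ratios of 0.89 in WT and 1.08 in Utx-cKO for Id2 and 0.74 in WT and 0.06 in Utx-cKO for Krt17, so that Krt17 was near level in the Utx-cKO section. Of the 8 upper follicle genes listed, 4 were on the panel. Gata6, a transcription factor of the duct, had 18 and 13 counts in the members, and Pglyrp3, a peptidoglycan recognition protein, had 27 and 13. The name therefore rests mainly on the rule genes and on where the cells lay.

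Members lay in clusters along each strip, below the surface epidermis. The median distance from the nearest cell with at least 5 granular-layer transcripts was 88.5 µm in WT and 87.9 µm in Utx-cKO. Other basal keratinocytes, those with no Lhx2 or Tbx1, lay at 10.9 and 14.5 µm, and keratinocytes with at least 2 Krt79 transcripts at 17.2 and 31.8 µm. A cell of any class that itself held at least 5 granular-layer transcripts counted as its own nearest, at 0 µm. In WT strip 3 the lower quartile of other basal keratinocytes was 0 µm. The gap to members was not measured without such cells. Medians by strip were 97.7, 88.5, 57.4 and 111 µm in WT and 102, 131, 69.5 and 135 µm in Utx-cKO. The third strip was the shallowest in both sections and the strips of the sections overlapped.

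**Figure D1:**
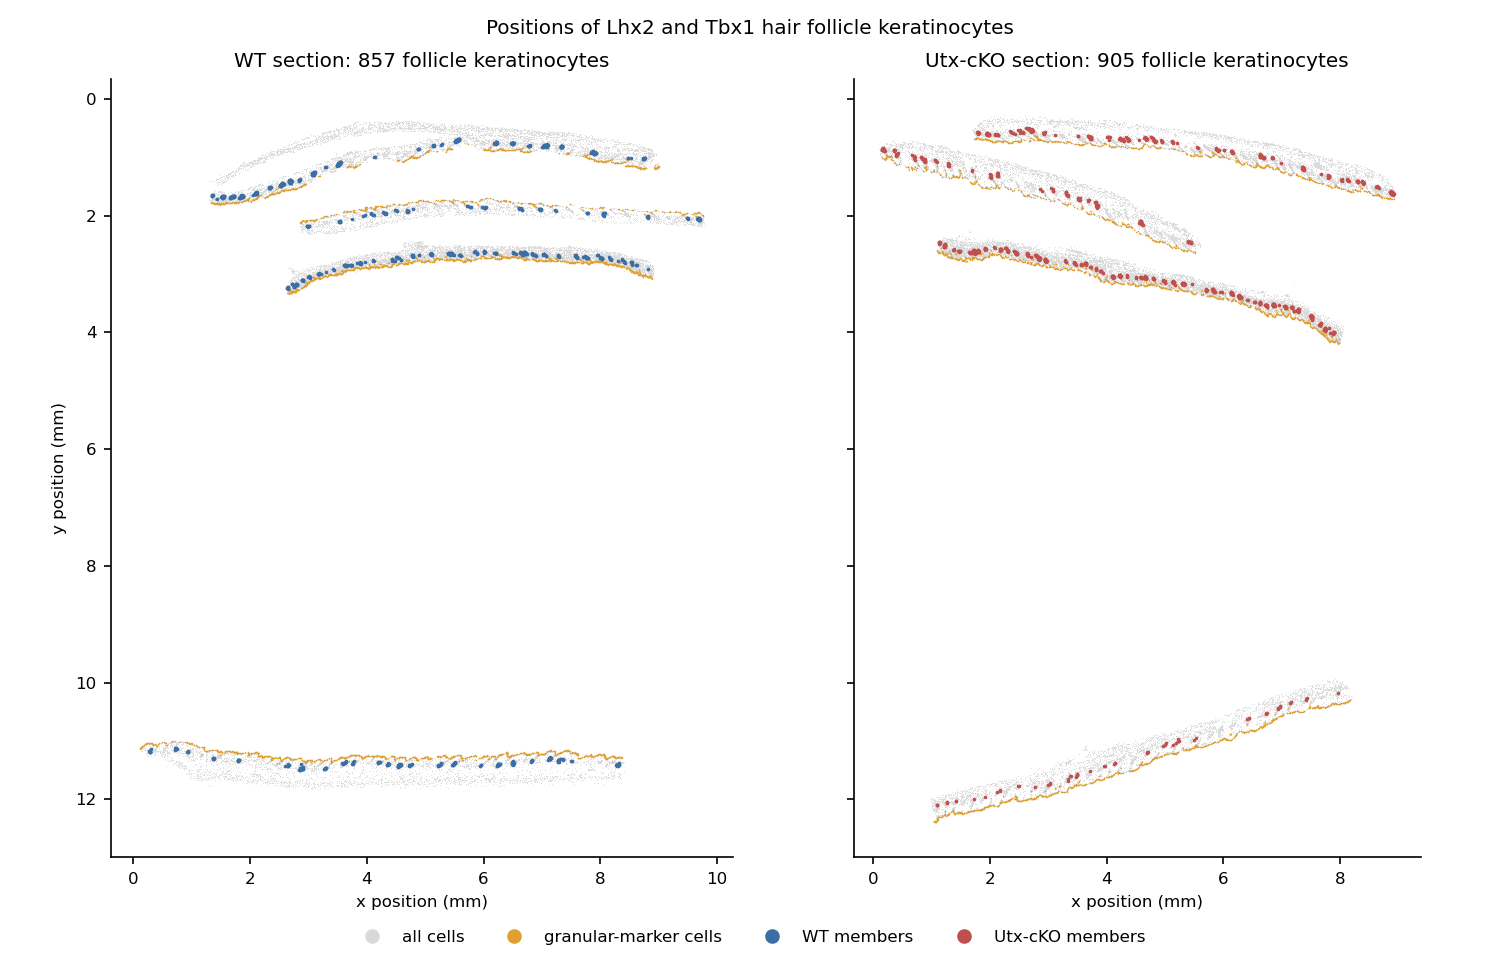
Positions in mm of all kept cells (grey), granular-marker cells (orange) and members (blue in WT, red in Utx-cKO) in both sections. The 857 and 905 members form small clusters under the orange line in all 4 strips of each section.

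**Figure D2:**
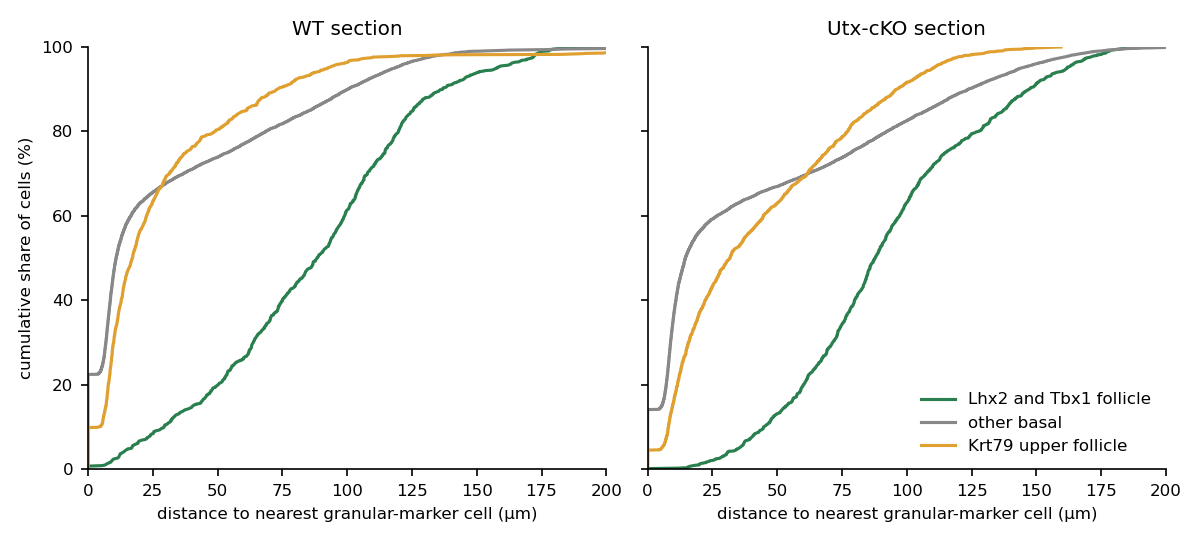
Cumulative share of cells (percent) against distance in µm from the nearest granular-marker cell in each section, for members (green), other basal keratinocytes (grey) and Krt79 upper follicle keratinocytes (orange). The members' curve lies to the right, with medians of 88.5 µm in WT and 87.9 µm in Utx-cKO.

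The median distance to the nearest other member was 7.60 µm in WT and 7.65 µm in Utx-cKO. Linked at 20 µm, members formed 173 groups in WT and 214 in Utx-cKO. Groups of at least 5 members numbered 67 and 66 and held 76.1% and 70.3% of members, and the largest had 29 and 24. Of the cells within 20 µm of a member, 21.8% and 20.8% were members, against 6.02% and 6.16% around other basal keratinocytes. Members were also small, with a median area of 48.5 and 48.6 µm2 against 63.1 and 62.3 µm2 in other basal keratinocytes, while their nuclei were not smaller (20.32 and 20.05 against 18.5 and 18.8 µm2).

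Around members, cells with melanocyte markers were more frequent and cells with T cell receptor genes and granular cells less frequent than around other basal keratinocytes. Cells with at least 2 transcripts of melanocyte markers made up 4.85% and 3.71% of the cells within 20 µm of a member, against 1.60% and 1.13% around other basal keratinocytes. These cells include other members, of which 7.23% and 5.52% carried at least 2 such transcripts, so not all of them are separate pigment cells. Cells with at least 2 transcripts of Cd3d, Cd3e, Cd3g and Cd8a, genes of the T cell receptor complex and its coreceptor, made up 0.106% and 0.273%, against 2.78% and 1.35%. With Thy1, which other cells of the skin also express, added to these genes, the shares were 5.44% and 4.58% against 7.64% and 5.00%, a smaller difference. Granular-marker cells made up 2.08% and 0.676%, against 28.0% and 22.3%, and cells of the comparator class can be among them. These orders held in both sections, but neighbours of neighbouring members are the same cells and are not independent.

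Members made up 7.43% (6.96 to 7.93) of keratinocytes with the basal genes in WT and 7.55% (7.08 to 8.04) in Utx-cKO, a ratio of 1.02 (0.924 to 1.12). The strips gave 12.2%, 5.03%, 6.30% and 6.05% in WT and 7.43%, 6.23%, 10.5% and 2.95% in Utx-cKO, which overlapped widely. With every cell thinned to 20 transcripts before the rule was applied, the shares were 0.976% (64 of 6560 cells) and 1.53% (100 of 6533 cells), a ratio of 1.57 (1.14 to 2.18). Without Utx-cKO strip 3 the unthinned ratio was 0.791, and without WT strip 1 it was 1.27, so no direction can be read from the share.

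Against other basal keratinocytes, members had higher levels of Postn, Ptn, Sfrp1 and Lef1 and lower levels of Calm4, Dsg1a and Scd1. Of 180 genes with at least 100 counts in members, rule genes left out, 49 (27.2%) were at least 1.5 times higher in both sections and 28 (15.6%) at least 1.5 times lower. These sets of cells also lay in different places and differed in depth, so the counts are a description.

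Postn, which encodes the matricellular protein periostin, stood at 52990, 47289, 32122 and 50323 CPM in the WT strips and 53715, 36493, 37523 and 62220 CPM in the Utx-cKO strips. Every strip lay above the 11374 and 14304 CPM of other basal keratinocytes in WT and Utx-cKO, and the log2 ratio was 2.00 in WT and 1.59 in Utx-cKO. Ptn, the heparin-binding growth factor pleiotrophin, stood at 26663, 27609, 13355 and 19524 CPM in the WT strips and 23862, 24785, 19286 and 11337 CPM in the Utx-cKO strips, against 5038 and 6211 CPM, with log2 ratios of 2.08 and 1.74. It was found in 78.1% and 71.5% of members and in all 67 and 66 groups of at least 5. Tnc, which encodes tenascin C, had log2 ratios of 1.86 and 1.61.

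Of 4 compared genes of the Wnt list, 2 were higher and 1 lower in both sections. Sfrp1, a secreted Wnt antagonist, stood at 7149, 5946, 5724 and 4744 CPM in the WT strips and 6554, 4359, 6714 and 7118 CPM in the Utx-cKO strips, against 1723 and 1552 CPM in other basal keratinocytes. The strips of both sections were high and alike, and the log2 ratio was 1.84 in WT and 2.05 in Utx-cKO. Lef1, a transcription factor that carries Wnt signals to target genes, was higher by 1.68 and 2.10. The membrane Wnt inhibitor Apcdd1 was lower, with log2 ratios of -1.62 and -1.66, and Ctnnb1, which encodes beta-catenin, did not reach 1.5-fold in WT (0.57 and 0.78).

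Aqp3, a water and glycerol channel, had log2 ratios of 1.84 and 1.60, Slc7a8, an amino acid transporter, 1.83 and 2.24, and Duox1, a hydrogen peroxide-producing oxidase, 2.00 and 2.26. Phlda1, a pleckstrin homology-like protein known as a marker of follicle stem cells, had 1.77 and 2.23 and the small heat shock protein gene Cryab 1.69 and 1.57. Mitf, the transcription factor of the pigment lineage, had 1.79 and 1.80 and was found in 27.3% and 23.5% of members.

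Dct, a melanin synthesis enzyme, had the largest WT ratio (2.22 in WT and 2.10 in Utx-cKO) but was held by few cells. Only 36 and 27 members with at least 3 Dct transcripts held 70.5% and 68.3% of it, and up to 21 lay in 1 cell. The 62 and 50 members with at least 2 transcripts of melanocyte markers, Dct included, held 15.4% and 11.8% of Mitf transcripts, so most Mitf counts lay in other members. All 4 melanocyte markers on the panel were detected in members, at a summed 4412 and 4494 CPM, from 1557 to 6531 over WT strips and from 973 to 6601 over Utx-cKO strips.

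**Figure D3:**
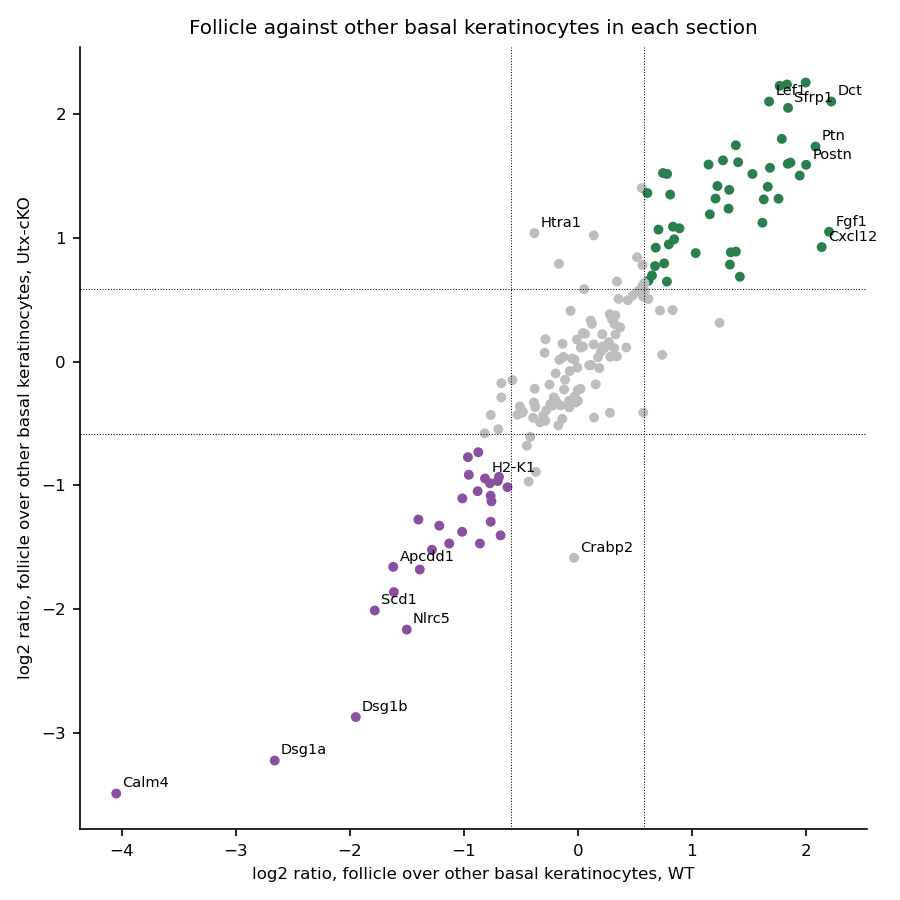
Log2 ratio of members over other basal keratinocytes in WT (horizontal) and Utx-cKO (vertical) for 180 genes, with dotted lines at 1.5-fold. The 49 genes higher in both sections are green and the 28 lower ones purple. Crabp2 and Htra1 lie off the diagonal.

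Among the lower genes were 1 of 6 compared suprabasal genes, 1 of 2 granular and cornified genes and 2 of 4 sebaceous and lipid genes, against 28 of 180 (15.6%) in all. Calm4, a calmodulin-like gene of differentiating epidermis, had log2 ratios of -4.05 and -3.49, and the desmosomal cadherin genes Dsg1a and Dsg1b had -2.66 and -3.22, and -1.95 and -2.87. Sprr2a1, a cornified envelope precursor, had -1.39 and -1.68, and Prdx5, a peroxiredoxin, -1.61 and -1.86. Scd1, the desaturase that makes monounsaturated fatty acids, had -1.78 and -2.01. The comparator held differentiating cells, since 36.3% and 26.9% of other basal keratinocytes carried at least 2 granular-marker transcripts, against 2.33% and 1.33% of members.

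Genes of MHC class I presentation, singled out after their values were seen, were mostly in this lower set. Nlrc5, the transactivator of class I genes, stood at 2355, 991, 2764 and 1581 CPM in the WT strips and 2355, 1744, 903 and 2373 CPM in the Utx-cKO strips, against 6305 and 6576 CPM in other basal keratinocytes, with log2 ratios of -1.50 in WT and -2.17 in Utx-cKO. Every strip of members lay below those levels. The class I heavy chain genes H2-K1 and H2-D1 had -0.81 and -0.94, and -0.62 and -1.01. Tap1, a subunit of the peptide transporter, had -0.76 and -1.08 and the immunoproteasome subunit Psmb8 -1.01 and -1.37. Tap2, the other transporter subunit, and Tapbp, its chaperone tapasin, were within 1.5-fold (0.16 and -0.18, and -0.07 and -0.37).

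Most of the higher genes were shared with keratinocytes next to the members. Basal keratinocytes without Lhx2 or Tbx1 but within 50 µm of a member numbered 2320 in WT and 2500 in Utx-cKO, at median distances of 77.8 and 94.3 µm from granular-marker cells and with medians of 57 and 47 transcripts. Against them, only 1 of 180 genes (0.556%) was at least 1.5 times higher in members in both sections, and 16 (8.89%) were lower. That 1 gene was the zinc transporter Slc39a8, with log2 ratios of 0.72 and 0.61. Of the 49 genes above, 47 were at least 1.5 times higher in these neighbours than in basal keratinocytes farther away, among 64 genes (35.6%) that were so, and 15 of the 28 lower genes were also lower there, among 19 (10.6%). That comparison was chosen after the data were seen. Postn shows it: 39076 and 37274 CPM in the neighbours against 2995 and 6275 CPM farther away. The ratio of members over neighbours was 0.22 and 0.21 for Postn, 0.32 and 0.15 for Ptn and 0.58 and 0.71 for Sfrp1. The higher counts of these genes are thus common to keratinocytes near the members and were not particular to cells in which Lhx2 or Tbx1 was decoded.

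All 4 compared genes of the sebaceous and lipid list were lower in members than in those neighbours, against 16 of 180 genes (8.89%) in all. Scd1 had log2 ratios of -1.83 and -2.47, the fatty acid elongase Elovl5 -1.46 and -1.49, its relative Elovl7 -1.61 and -1.29, and the fatty acid synthase gene Fasn -0.86 and -0.80. Outside the list, and named after their values were seen, Acsl4, which activates long-chain fatty acids, had -1.28 and -1.83 and the lysophospholipid acyltransferase gene Lpcat3 -0.69 and -0.85. Apcdd1 was lower again (-1.06 and -1.15), as were the surface glycoprotein gene Thy1 (-1.24 and -1.04) and the fibroblast genes Mfap4 (-1.40 and -0.84) and Col6a3 (-1.14 and -0.60). Of the class I genes, Nlrc5 stood at 2230 and 1466 CPM in members and at 2449.9 and 2932 CPM in neighbours. H2-K1 had log2 ratios of -0.20 and -0.59 and H2-D1 0.00 and -0.69. These passed 1.5-fold in Utx-cKO and not in WT, and the difference between the sections was not tested. The 6 sebocyte markers on the panel, Scd1 and Fasn among them, were all detected in members and summed to 3158 CPM (2832 to 3712 over strips) and 3264 CPM (2202 to 4482). In all other basal keratinocytes they summed to 7588 CPM (6350 to 8536) and 9131 CPM (6706 to 13294), and the part of sebaceous cells in these ratios was not tested.

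Keratinocytes with Krt79, from the upper follicle, were the last comparator. Of 180 genes, 64 (35.6%) were at least 1.5 times higher in members than in them in both sections and 43 (23.9%) lower. Sfrp1 was higher in members by log2 ratios of 5.52 and 5.00, Postn by 3.52 and 3.66, Lef1 by 3.41 and 3.80, Igfbp3 by 3.75 and 3.61 and Duox1 by 3.23 and 3.77. Ptgds, a prostaglandin D2 synthase, had 6.73 and 3.98. The Krt79 keratinocytes held very few Ptgds transcripts, so the size of these ratios and the gap between sections are uncertain. Lipid genes were again lower, with -3.92 and -4.01 for Scd1, -3.68 and -3.78 for Elovl7, -3.97 and -3.35 for Elovl5 and -2.10 and -2.05 for Fasn, and Crabp2 had -1.84 and -3.24. These genes were picked by size after the values were seen.

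Members differed among themselves with depth. Between members over 100 µm and up to 50 µm from granular-marker cells, bins chosen after the data were seen, 18 of 180 genes (10%) were at least 1.5 times higher in both sections and 15 (8.33%) lower. The chemokine gene Cxcl12 had 224, 703 and 2160 CPM over the 3 bins in WT, from shallow to deep, and 193, 427 and 1310 CPM in Utx-cKO. Igfbp3, which binds insulin-like growth factors, had 1571, 4952 and 6803 CPM and 2220, 3743 and 7271 CPM. Log2 ratios of the deepest over the shallowest bin were 3.27 and 2.76 for Cxcl12, 2.11 and 1.71 for Igfbp3, 1.87 and 2.65 for the secreted protease gene Htra1 and 1.40 and 2.81 for Lef1. Ccnd1, the G1 cyclin D1, had 0.89 and 1.08. Counts in the shallowest bin were few: 4 in WT and 2 in Utx-cKO for Cxcl12, 5 and 2 for Lef1, and 8 and 7 for Htra1. The WT interval of Lef1 included 0 (-0.03 to 3.15), and that of Cxcl12 in Utx-cKO ran from 0.78 to 5.87. Phlda1, Dct and Fn1 were also in this set, with 1, 2 and 1 counts in that Utx-cKO bin.

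Of the genes lower with depth, Aspn, which encodes the small leucine-rich proteoglycan asporin, had 11730, 3633 and 1773 CPM over the 3 bins in WT and 7143, 2512 and 1761 CPM in Utx-cKO. Anxa1, a phospholipid-binding annexin, had 20485, 10256 and 6578 CPM and 8012, 6782 and 5148 CPM. Cdsn, a corneodesmosome gene, had log2 ratios of -1.08 and -1.50, suprabasin (Sbsn) -1.01 and -0.76, the tight junction gene Cldn4 -1.58 and -1.61 and Crabp2, a retinoic acid-binding protein, -2.34 and -0.90, where the Utx-cKO interval included 0 (-2.56 to 0.79). Depth and strip go together: WT strip 3 held 57.1% of the shallowest WT members and Utx-cKO strip 3 held 88.1% of those in its section. Directions within single strips are shown as a description, since the same cells entered the pooled calls. In strip 1, members over 100 µm against those up to 50 µm had the pooled direction for 16 of 18 higher and 14 of 15 lower genes in WT, and for 14 of 18 and 10 of 15 in Utx-cKO. Only 11 Utx-cKO members of strip 1 lay up to 50 µm. Most of those 14 higher genes had 0 counts in them and all 14 intervals included 0, so that tally carries little. In strip 3, where members over 50 µm were set against the others, it was 18 of 18 and 15 of 15 in WT and 17 of 18 and 14 of 15 in Utx-cKO. These tallies count direction alone, and many intervals of the higher genes included 0 in these strips too. In WT strip 3 they include Fasn at 0.04, Cers2 at 0.11 and Eno1b at 0.16.

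**Figure D4:**
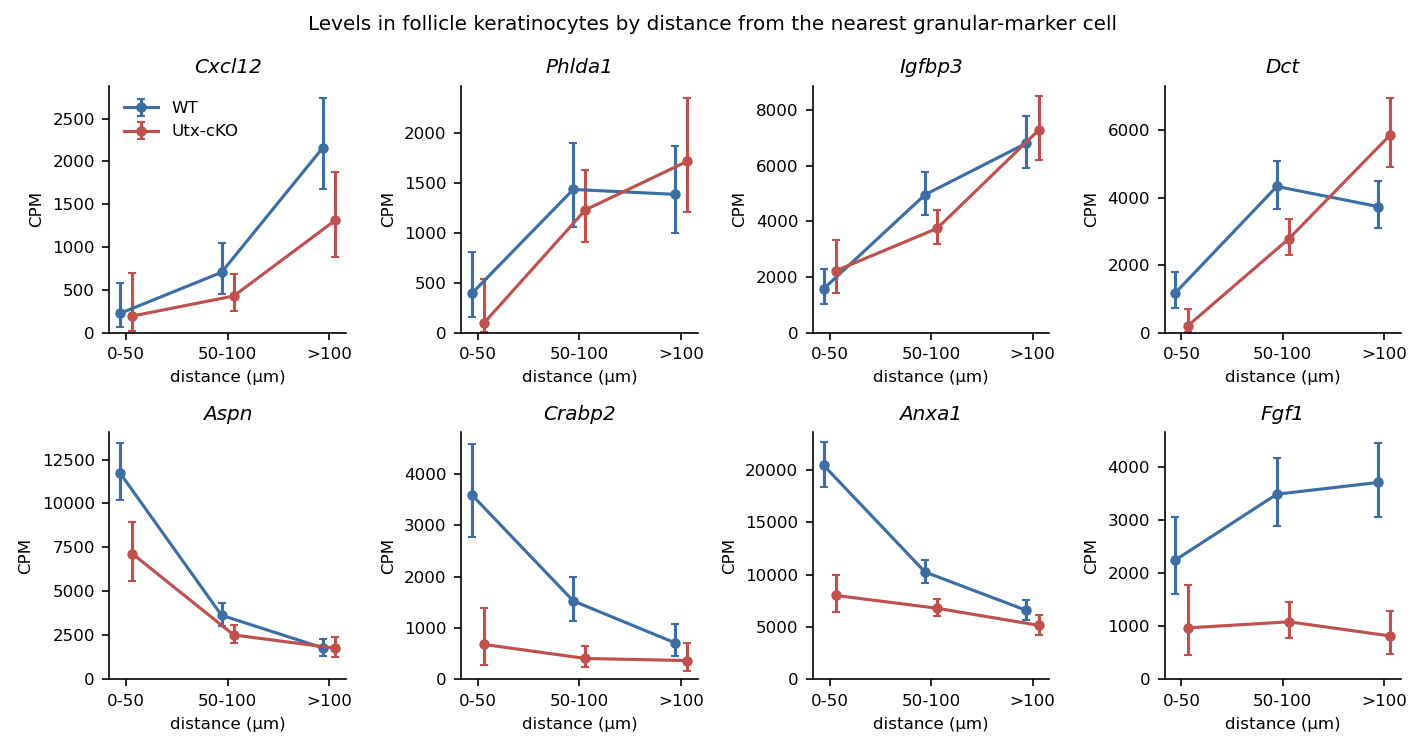
Levels in members (CPM, with exact 95% Poisson intervals for counting error) of 8 genes by distance from the nearest granular-marker cell in µm, in WT (blue) and Utx-cKO (red). Cxcl12 and Igfbp3 were higher in the deepest bin and Aspn and Anxa1 lower, while Fgf1 was lower in Utx-cKO in each bin.

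Members with Tbx1 differed from those without it in few genes. The split uses a rule gene: a member without Tbx1 needed at least 2 Lhx2 transcripts, while one with it could hold fewer. Lhx2 stood at 16203 CPM in WT and 18724 CPM in Utx-cKO members with Tbx1, against 26903 and 30957 CPM without. The comparison is therefore a description. Of 180 genes, 3 (1.67%) were at least 1.5 times higher in both sections and 3 (1.67%) lower. The higher genes were Lef1, with log2 ratios of 1.37 (0.47 to 2.32) in WT and 0.84 (0.08 to 1.62) in Utx-cKO, Htra1, with 0.76 (0.22 to 1.30) in WT and 1.23 (0.81 to 1.65) in Utx-cKO, and Nfe2l2, the transcription factor of the antioxidant response, with 0.64 (0.08 to 1.19) in WT and 0.76 (0.08 to 1.46) in Utx-cKO. The lower ones were Nlrc5, with -1.31 (-1.88 to -0.78) in WT and -1.20 (-1.89 to -0.54) in Utx-cKO, and Ptgr1, a prostaglandin reductase, with -0.71 (-1.49 to 0.02) in WT and -0.97 (-1.90 to -0.11) in Utx-cKO. Crabp2 had -0.99 (-1.61 to -0.41) in WT and -0.65 (-1.90 to 0.50) in Utx-cKO. The intervals of Ptgr1 in WT and of Crabp2 in Utx-cKO included 0. Members with Tbx1 lay at median distances of 98.4 and 91.1 µm from granular-marker cells and those without at 80.6 and 85.3 µm.

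Kdm6a, the gene the design deletes, was still decoded in members of the Utx-cKO section. It stood at 2243, 1133, 4127 and 2337 CPM in the WT strips and 1536, 2616, 2441 and 2373 CPM in the Utx-cKO strips, and the strips overlapped. The pooled levels were 2748 CPM in WT and 2213 CPM in Utx-cKO. Their log2 ratio was -0.31 (-0.61 to -0.01), and 0.055 without WT strip 3. In the neighbours within 50 µm the ratio was -0.53 (-0.74 to -0.31), and -0.11 without WT strip 3, which held 4156 CPM there. In basal keratinocytes farther away it was 0.07 (-0.05 to 0.18). No source used here says which exons the probes cover, so these counts do not check the deletion. Kdm6b, the other H3K27 demethylase of the family, had 0.41 (0.12 to 0.70) and Kmt2a, an H3K4 methyltransferase, 0.03 (-0.23 to 0.28).

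Between genotypes, members of the Utx-cKO section had fewer Fgf1 and Crabp2 transcripts, and most other genes were near level. Of 180 genes, 9 (5%) were at least 1.5 times higher in Utx-cKO and 13 (7.22%) at least 1.5 times lower, with a median log2 ratio of -0.02 over all 180. In 3 genes (1.67%) every Utx-cKO strip lay below every WT strip, Crabp2, Fgf1 and Dsg1a, and in 0 genes every Utx-cKO strip lay above. With so few strips, their order alone can separate some of 180 genes, so this separation is a description. Crabp2 and Fgf1 alone stayed past 1.5-fold under each alternative setting run, out of 22 genes followed.

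Fgf1, acidic fibroblast growth factor, stood at 4738, 1841, 2258 and 2337 CPM in the WT strips and 614, 996, 1147 and 1055 CPM in the Utx-cKO strips. All Utx-cKO strips lay below all WT strips, and WT strip 1 was the highest. Pooled levels were 3303 CPM (274 counts) and 982 CPM (71 counts), a log2 ratio of -1.75 (-2.15 to -1.37), and -1.18 without WT strip 1. Fgf1 was found in 25.1% of WT and 7.29% of Utx-cKO members, and in 57 of 67 and 34 of 66 groups of at least 5. It was lower in each distance bin, with log2 ratios of -1.22, -1.69 and -2.19 from shallow to deep.

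The same gene was lower in keratinocytes beside the members. The neighbours within 50 µm had no decoded Lhx2 or Tbx1, met the rule's other conditions and were picked by closeness to members. In them Fgf1 had 2331, 2249, 2148 and 2879 CPM in the WT strips and 775, 1127, 663 and 1942 CPM in the Utx-cKO strips. These strips did not overlap, and the log2 ratio was -1.35 (-1.66 to -1.05). In cells with a sum of 1 it was -1.26 (-1.61 to -0.91). In basal keratinocytes farther away, where levels were only 226 and 319 CPM, it was 0.50 (0.11 to 0.88). The lower Fgf1 was thus seen in follicle-depth keratinocytes with and without decoded Lhx2, and the opposite sign farther away was not tested as a difference.

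Crabp2, which carries retinoic acid to its nuclear receptor, stood at 1486, 991, 2336 and 1237 CPM in the WT strips and 512, 747, 342 and 264 CPM in the Utx-cKO strips. Again all Utx-cKO strips lay below all WT strips. Pooled levels were 1663 CPM (138 counts) and 429 CPM (31 counts), a log2 ratio of -1.96 (-2.57 to -1.39), with a range from -2.10 to -1.62 when each strip was left out in turn. It was found in 11.6% and 3.09% of members. By distance bin the log2 ratio was -2.41, -1.92 and -0.97 from shallow to deep. In the deepest bin, with 22 WT and 8 Utx-cKO counts, the interval included 0 (-2.35 to 0.25). In neighbours within 50 µm the ratio was -0.63 (-0.93 to -0.35), where the strips overlapped and leaving out 1 strip gave -1.11 to -0.38, and in cells with a sum of 1 -1.36 (-1.81 to -0.93). The other compared gene of the retinoid list, the retinoic acid receptor gene Rarg, had 0.04.

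Of the other genes lower in Utx-cKO members, Dsg1a stood at 1766, 1982, 3349 and 1925 CPM in the WT strips and 1383, 1619, 1538 and 264 CPM in the Utx-cKO strips, with a log2 ratio of -0.68 (-1.04 to -0.33). The lowest Utx-cKO strip had 1 count, and without WT strip 3 the ratio was -0.35. In neighbours within 50 µm the Dsg1a strips overlapped. They had 2208, 2339, 3028 and 1331 CPM in WT and 1777, 1821, 1910 and 1110 CPM in Utx-cKO. Dsg1b had -0.88 (-1.48 to -0.30), Cldn4 -0.80 (-1.40 to -0.22) and Prdx5 -0.69 (-1.23 to -0.17), all with overlapping strips. Without WT strip 3 they had -0.37, -0.41 and -0.34. Anxa1 had -0.78 (-0.94 to -0.62) and Aspn -0.67 (-0.92 to -0.42), and both were highest in WT strip 3, at 18105 and 9072 CPM. Without that strip Anxa1 was -0.30 and Aspn 0.12, while without Utx-cKO strip 3 Aspn was -1.39. Cxcl12 had -0.79 (-1.32 to -0.27) and was highest in strip 4 of both sections, at 3506 and 3691 CPM, and without WT strip 4 it was 0.046 and without Utx-cKO strip 3 -0.12. Thy1 had -0.69, the ectonucleotide pyrophosphatase gene Enpp1 -0.63, the lipocalin gene Apod -0.61 and Nlrc5 -0.61. Each of these 4 dropped below 1.5-fold without at least 1 strip, Thy1 (-0.38) and Enpp1 (-0.26) without WT strip 3, Nlrc5 (-0.02) without Utx-cKO strip 3 and Apod (-0.43) without Utx-cKO strip 1.

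The 9 genes higher in Utx-cKO members each had overlapping strips. Htra1 stood at 1121, 1274, 1947 and 1512 CPM in the WT strips and 1946, 1868, 3833 and 1055 CPM in the Utx-cKO strips, with a log2 ratio of 1.02 (0.69 to 1.35). It was highest in Utx-cKO strip 3 and was 0.32 without that strip. Fn1, fibronectin, stood at 953, 708, 1324 and 1237 CPM in the WT strips and 870.5, 3487, 2441 and 1582 CPM in the Utx-cKO strips, with 0.93 (0.54 to 1.32), and was high in Utx-cKO strips 2 and 3. Leaving out strip 3 gave 0.57. In neighbours within 50 µm the strips of Fn1 and Htra1 also overlapped. Fn1 there had 828, 945, 1808 and 324 CPM in the WT strips and 1162, 737, 1364 and 347 CPM in the Utx-cKO strips. No Utx-cKO strip was above the highest WT strip. Htra1 had 1165, 1124, 1808 and 1080 CPM in WT and 2073, 1041, 2085 and 694 CPM in Utx-cKO. Id4, an inhibitor of basic helix-loop-helix factors, had 0.70 (0.47 to 0.94), and Col5a2, a chain of collagen V, 0.66 (0.40 to 0.91). Both were 0.20 to 0.21 without Utx-cKO strip 3. In neighbours within 50 µm Id4 strips overlapped too, at 2116 to 4228 CPM in WT and 3372 to 4596 CPM in Utx-cKO. Lef1 had 0.65 (0.08 to 1.23) and the chromatin remodeller gene Chd3 0.62 (0.33 to 0.92), where the values were 0.46 with WT strip 1 left out and 0.41 with Utx-cKO strip 2 left out. The membrane protein gene Itm2a had 0.73 (0.17 to 1.30). Sprr2a1 had 0.69 (0.20 to 1.19), and 0.20 without WT strip 1, and Calm4 0.72 (0.21 to 1.22), which was -0.28 without Utx-cKO strip 3.

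**Figure D5:**
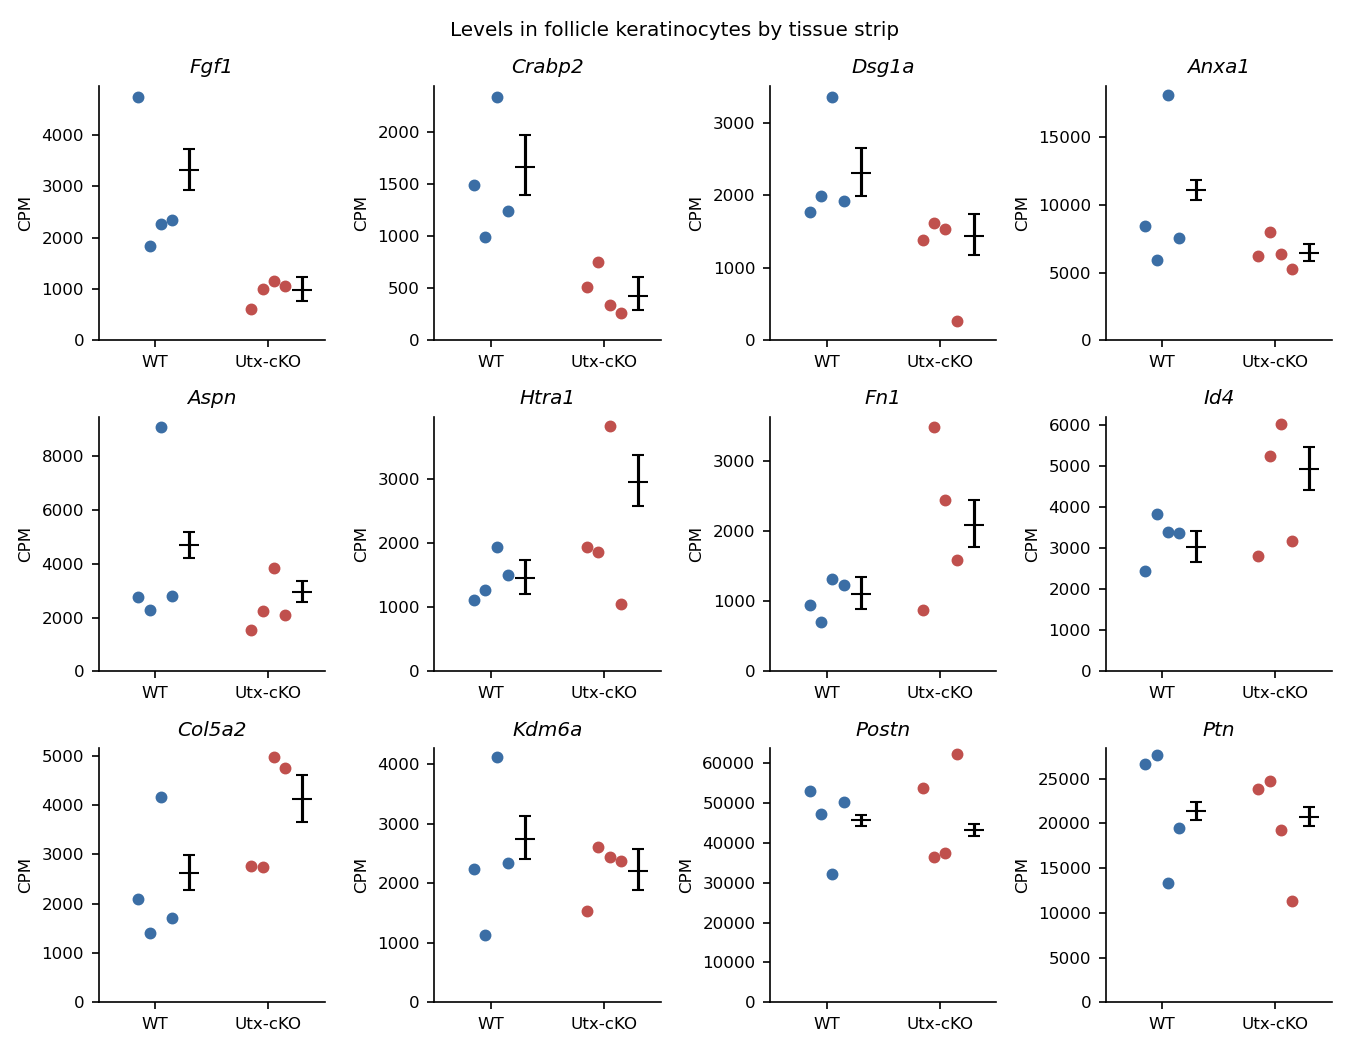
Levels in members (CPM) of 12 genes in the 4 strips of the WT section (blue) and of the Utx-cKO section (red), with the pooled level and its exact 95% Poisson interval as black bars. Fgf1, Crabp2 and Dsg1a strips do not overlap between sections, and those of the other 9 genes do.

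The gene lists held few compared genes, and their counts stand against 5% higher and 7.22% lower over all 180, from which they cannot be told apart. Of 8 basal identity and adhesion genes on the panel, 5 could be compared, and 0 passed 1.5-fold, with a median log2 ratio of -0.02. Itga6, the hemidesmosomal integrin alpha6 subunit, had -0.22, Lamb3, a chain of laminin-332, 0.33, and Trp63, the transcription factor of the basal layer, -0.05. Dst, the hemidesmosomal linker dystonin, had -0.02, between 31555 and 39926 CPM over WT strips and between 32982 and 39810 CPM over Utx-cKO strips. Of the abundant genes, Anxa8, an annexin, had -0.26, and Trim29, a TRIM family protein of stratified epithelium, 0.09. Against other basal keratinocytes Itga6 was lower in members (-1.01 and -1.11) and Lamb3 higher (0.71 and 1.07).

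Among 8 compared genes of the chromatin regulator list, 0 passed 1.5-fold between genotypes, with a median log2 ratio of 0.05. The list does not hold every chromatin gene compared, and Chd3, outside it, was among the genes higher in Utx-cKO. In the suprabasal list 1 of 6 compared genes was lower, Dsg1a, with a median of -0.03. Among 4 compared growth factors and binding proteins 1 was lower, Fgf1. Igfbp3 (-0.09), Igfbp5 (-0.18) and the receptor kinase gene Axl (-0.43) stayed within 1.5-fold. Of 4 sebaceous and lipid genes compared 0 passed, and of 4 Wnt genes Lef1 alone was higher. The 2 compared genes of the cell cycle list, Ccnd1 and Myc, had -0.12 and 0.51.

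T cell transcripts were few in members of both sections, and summed fibroblast transcripts other than Postn were not above other basal keratinocytes. Lum, Pdgfra and Mfap4, fibroblast genes, summed to 2387 CPM in WT (1557 to 3855 over strips) and 2226 CPM in Utx-cKO (666 to 2954), and all 3 were detected in both. Other basal keratinocytes had 3291 and 2266 CPM. At least 2 such transcripts lay in 4.20% and 3.87% of members, against 4.73% and 2.63%. With Postn, also on the fibroblast list, these shares were 74.1% and 60.4% of members, against 23.0% in each section. The 4 T cell genes without Thy1 summed to 217 and 360 CPM, in 18 and 26 counts, and no member held more than 1 of them. The 7 granular markers summed to 2182 CPM in WT (849 to 4633) and 1203 CPM in Utx-cKO (791 to 1868), in the direction of the lower Dsg1a, Dsg1b and Cldn4, and their part in those ratios was not tested. With both sections weighted to equal shares of the 3 distance bins, Fgf1 had -1.72, Crabp2 -2.02 and Dsg1a -0.71. Under that weighting Dsg1b (-0.54) and Apod (-0.36) were no longer past 1.5-fold.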

How the data were processed

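For each segmented cell, the authors' cell tables hold transcript counts, coordinates and areas, and the deposited transcript tables give every molecule a quality score of at most 40. The sources used here name no software for decoding or segmentation. Per the labels, the sections were 5 µm thick. In each of 40371 WT and 52308 Utx-cKO cells, the deposited count equals the number of gene molecules scored 20 or more. Nucleus outlines were not read, and the values over nuclei alone use the deposited mark of whether a molecule overlaps a nucleus.

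Counts were summed over a class of cells and scaled to the same panel total (CPM) in Python 3.11.15, with pandas 2.3.3, numpy 2.4.6, scipy 1.17.1 and matplotlib 3.10.9. With 1 section per group, a ratio of 1.5 is a rule of size, for genes with at least 100 counts in members over both sections. Levels have Poisson intervals, ratios conditional binomial ones, and shares Clopper-Pearson ones. No doublet caller was run, so a member can hold transcripts of a neighbour. Strips are connected areas of at least 1000 cells linked at 100 µm. Genes were named by rule as the 12 highest and 12 lowest past 1.5-fold between genotypes, the 12 highest and 8 lowest over other basal keratinocytes, the 10 most abundant, both follicle lists, the rule genes, Kdm6a, Kdm6b and Kmt2a. Other genes named belong to a list or to a comparison whose values had been seen. Alternatives changed the quality score, the cell and gene minimums, the rule, the scaling, depth, comparator, tissue side and strips. The ratio code was checked on simulated data. The members and gene lists were chosen with earlier results of these data known.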

Additional observations from a re-analysis of the deposited data

How the results depend on the processing

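The share of members (ratio 1.02) was 0.874 at quality scores of at least 30, 0.892 with a Lhx2 and Tbx1 sum of at least 3, 1.15 with both genes required, 1.57 after thinning, and 0.791 to 1.27 when 1 strip was left out. The 9 genes higher in Utx-cKO became 5 with both genes required, 15 with a gene minimum of 50 counts, 2 on mean counts per cell, 4 after thinning to 20 transcripts, and 3 to 13 when 1 strip was left out. The 13 lower ones became 7 with a sum of at least 3, 3 with both genes required, 8 over nuclei alone, 23 with a gene minimum of 50, 35 on mean counts per cell, 6 on the left and 6 on the right side of the sections, 6 after thinning, and 7 to 18 when 1 strip was left out. Several of these settings leave fewer genes to compare, and mean counts per cell keep the difference in depth. The Kdm6a ratio ranged from -0.52 to 0.055 when 1 strip was left out. Over all genes compared, the count higher in members (49) was 32 over nuclei alone and 1 against neighbours within 50 µm. The count lower (28) was 12 at scores of at least 30, 12 with a sum of at least 3, 10 with both genes required, 16 over nuclei alone, 17 on mean counts per cell and 16 against those neighbours, of which 9 were among the 28. Member neighbours fell by definition with a sum of at least 3, to 12.3% and 10.5%.

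Between genotypes, 8 of 572 values reversed: Cxcl12 at scores of at least 30 (0.49) and without WT strip 4 (0.046, with a range from -1.21 when 1 strip was left out), Aspn with both genes required (0.10) and without WT strip 3 (0.12, range from -1.39), Dsg1b with both genes required (0.093), Lef1 on the right side (-0.060), Itm2a after thinning (-0.27) and Calm4 without Utx-cKO strip 3 (-0.28, range up to 1.39). Over other basal keratinocytes, Cryab (-0.092) and Dsg1b (0.26) reversed against neighbours within 50 µm and Dct (-0.52) without melanocyte-marker cells, a setting that selects on Dct itself, and Apcdd1 and Scd1 alone of 20 genes passed 1.5-fold in every setting. The cause was not tested for the others. The settings without marker-bearing cells and with equal distance bins were chosen after seeing the data. No paired analysis was possible because each group has 1 section. Counts under 100 in most strips limit single genes to large differences.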
